A study of Mus musculus with 18 samples.

Results

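The translation initiation and elongation factors were taken as every gene whose probe names a single symbol starting with Eif or Eef, without pseudogene symbols and without the eIF2 kinases. The rule used symbols alone and found 60 genes, read by 65 probes, among the 22180 genes with such a probe. They comprise 12 subunits of eIF3, 5 of eEF1, 14 genes of the eIF4 group and 5 subunits of eIF2B. Another 10 were grouped by name with eIF1, eIF2, eIF5 and eIF5B. The rest are 12 genes of eEF2, eIF5A, eIF6 and other Eef symbols, and 2 others (Eif2c5 and Eif4a3l1). Eif3g, Eif1, Eif2s1, Eif4g1 and Eef1akmt4 had no probe here, and Eif3j2, Eif2s3x and Eif4ebp3 were on probes that name several genes.

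The cells were phagocytes of the small intestine of VDTR mice, a line known to carry the diphtheria toxin receptor joined to green fluorescent protein (GFP) under the villin promoter of intestinal epithelium. Every mouse, those behind the GFP-minus samples included, had received diphtheria toxin into the peritoneum at 2 ng per kg and was killed 4 hours later, so no group lacks the toxin. Live CD45+ CD11c+ MHCII+ cells were sorted into dendritic cells (DCs; CD103+ CD24+ gate), CD103 macrophages (CD103+ CD11b+ CD64+ gate) and CD11b macrophages (CD11b+ CD64+ gate). Each population was divided into GFP-plus cells, taken to hold epithelial material, and GFP-minus cells. The 6 groups have 3 arrays each. The mice were of both sexes and no age is given. The labels give an n value of 4 for every sample without saying what it counts, and do not say whether the arrays of a group came from separate or pooled mice; n below is the number of arrays, 3 per group. Therefore the p-values below cover the spread among arrays only. In every group except the GFP-plus DCs, sex-linked genes differed between arrays (below), so those arrays did not all hold the same cells. How much of the spread is technical is not known.

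Initiation begins when eIF2, loaded with GTP and the initiator tRNA, joins the small ribosomal subunit together with eIF1, eIF1A, eIF5 and the large scaffold eIF3. The eIF4 proteins bind the mRNA cap and unwind the leader, eIF5B joins the large subunit, and eIF2B reloads eIF2 with GTP. In elongation, eEF1A brings each aminoacyl-tRNA, the eEF1B subunits encoded by Eef1b2, Eef1d and Eef1g recharge it, and eEF2 moves the ribosome along. Diphtheria toxin stops protein synthesis by modifying the diphthamide residue of eEF2. Many mRNAs of elongation factors and of some eIF3 subunits start with a C followed by a run of pyrimidines, a feature through which their translation follows mTOR activity.

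The start regions of members that passed a test are shown where exactly 1 start is annotated, to let this feature be read. RefSeq promoter windows on GRCm38.p6 held 46 of the 60 members, and 5 of the genes that passed have exactly 1 annotated start there. Eif4e2 has 3 starts and Eif5a 6, and they are not shown. Eef1d and Eef1g have no window there and enter none of the window counts below. Each sequence gives 40 bases before and 20 from the start, 5′ to 3′ on the gene's strand. Capitals mark a pyrimidine run from the start in Eif3f and the ETS-type motif CCGGAAGT in Eef1b2.
Eif3f (chr7:108934375-108934434, plus strand): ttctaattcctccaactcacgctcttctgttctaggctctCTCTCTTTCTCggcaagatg
Eef1b2 (chr1:63176791-63176850, plus strand): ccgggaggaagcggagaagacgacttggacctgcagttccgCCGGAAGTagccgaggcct
Eif3c (chr7:126566347-126566406, minus strand): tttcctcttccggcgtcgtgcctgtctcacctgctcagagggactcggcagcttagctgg
Eif4b (chr15:102073733-102073792, plus strand): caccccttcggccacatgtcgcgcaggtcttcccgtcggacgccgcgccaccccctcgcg
Eif2b2 (chr12:85219441-85219500, plus strand): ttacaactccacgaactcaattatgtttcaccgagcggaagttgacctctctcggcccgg
The Eif3f window reads 11 pyrimidines from its annotated start. A C followed by at least 4 pyrimidines at the start was found in 2 of 60 member windows (3.33%), those of Eif3f and Eif2c5, and in 2.51% of all 32851 windows. CCGGAAGT, on either strand of the whole window, was found in 10 of 60 member windows (16.7%) and in 3.89% of all windows. The genes with it were Eef1b2, Eif2b2, Eif2b4, Eif3d, Eif3l, Eif4e2, Eif5a and Eif5a2. These are matches of letters near annotated starts and do not show where transcription started in these cells.

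The values are log2 signals with the median of every probe over the 18 arrays set to 0. Differences between groups are therefore measured, and levels of different genes cannot be set against each other. Column medians lay between -0.0377 and 0.0494. The defining markers fitted the gates: 5 of 7 DC markers were higher and 7 of 7 macrophage markers lower in DCs than in either macrophage population. Other markers moved with the GFP gate. The mean over 4 inflammatory monocyte markers was 0.92 to 1.18 in GFP-minus and -1.12 to -0.50 in GFP-plus CD103 macrophages, and 0.69 to 1.19 against -1.12 to -0.57 in CD11b macrophages. In DCs it was -0.16 to 0.63 against -1.72 to -0.71. Of the 4 markers, 1 fell in CD11b macrophages at an adjusted p under 0.05, and 0 in either other population. The mean over 11 T and innate lymphocyte markers was 1.43 to 3.05 in GFP-minus CD103 macrophages and -0.05 to 0.66 in the GFP-plus ones. In DCs it was 0.10 to 0.92 without and -0.53 to -0.30 with GFP, and 1 of the 11, Gzma, fell (-3.87 ± 0.47, adjusted p = 0.000978). In CD103 macrophages 1 of the 11 also fell, where 0.0271% of all genes did, and the median change of the 11 was -2.02. In DCs over CD103 macrophages 4 of the 11 were lower, where 5.33% of all genes were. The mean over 6 B and plasma cell markers was 0.22 to 0.52 in GFP-minus and -0.49 to -0.38 in GFP-plus DCs, and Ighm fell (-2.0 ± 0.44, adjusted p = 0.0387). Epithelial markers ran the other way. The mean over 10 enterocyte markers was -0.28 to 0.00 against 0.36 to 0.72 in DCs. It was -0.24 to 0.07 against 0.08 to 0.55 in CD103 and -0.29 to -0.14 against 0.16 to 0.44 in CD11b macrophages. The mean over 7 secretory markers was -0.43 to -0.39 against 0.22 to 1.06 in DCs, where Defa24 rose (4.34 ± 0.54, adjusted p = 0.00116). It overlapped between the gates in both macrophage populations. In DCs the 7 macrophage markers averaged -4.73 to -3.79 against -5.02 to -4.63, and C1qa fell (-1.53 ± 0.35, adjusted p = 0.0452). In the mean GFP effect over populations, 3 of 4 monocyte and 2 of 11 lymphocyte markers fell, while 1 of 10 enterocyte markers (Fabp1) and 1 of 7 secretory epithelial markers (Defa24) rose. No marker of DCs (7), macrophages (7), B and plasma cells (6) or all sorted cells (3) passed there.

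A member of the set itself reports the sex of the cells. Eif2s3y, the Y-linked copy of the eIF2 gamma subunit gene, read 5.20, 2.70 and 3.63 on the GFP-minus DC arrays and -0.04, -0.02 and -0.06 on the GFP-plus DC arrays. All 3 GFP-minus DC arrays were thus high and all 3 GFP-plus DC arrays low. The log2 change was -3.88 ± 1.87 (SE, n = 3 arrays per group), with a limma adjusted p of 0.343. In each macrophage group 1 array was high and the other 2 were low: replicate 3 of the GFP-minus CD103 macrophages at 4.91, replicate 2 of the GFP-plus ones at 5.94, and replicate 2 of both CD11b macrophage groups at 3.52 and 5.14. Xist, the X-linked RNA of female cells, was low on replicate 1 of the GFP-minus DCs (-5.33) but at -0.35 and -0.42 on replicates 2 and 3, which also carry Eif2s3y. In GFP-minus CD103 macrophages Xist was low on replicate 2 (-5.29) and replicate 3 (-5.21). On that replicate 2 Eif2s3y was 0.02, while the Y-linked genes Uty and Kdm5d read 0.88 and 0.34. In GFP-plus CD103 macrophages Xist was low on replicate 2 alone (-5.24), so these gates were not balanced in Xist. In both gates of CD11b macrophages Xist was low on replicate 2 alone (-5.25 without and -5 with GFP). Within DCs, the GFP gate and the presence of male cells cannot be told apart.

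**Figure D1:**
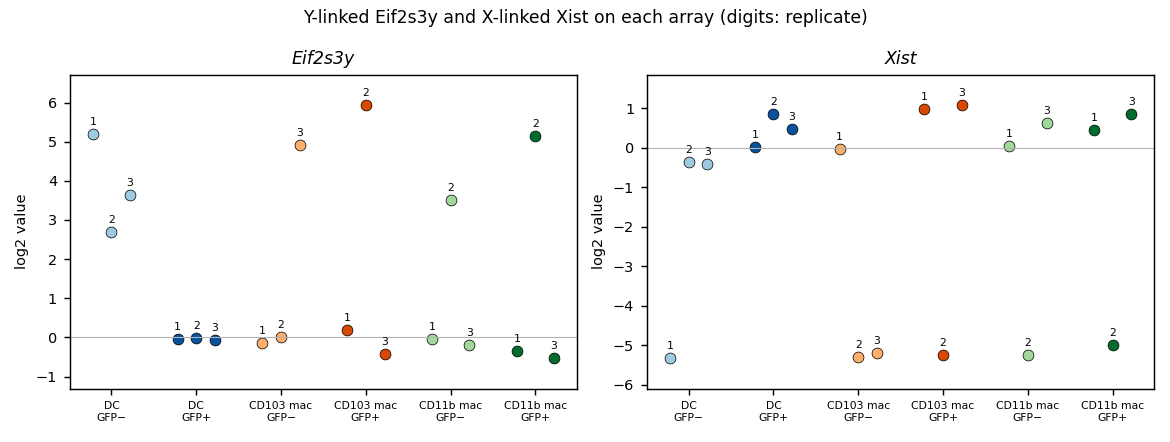
Log2 values of Eif2s3y (left) and Xist (right) on each of the 18 arrays, by group, with the replicate number above each point; mac stands for macrophage. All 3 GFP-minus DC arrays carry Eif2s3y (2.70 to 5.20) and no GFP-plus DC array does (-0.06 to -0.02).

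Over the whole set, the members were highest in GFP-minus DCs more often than in any other group: 24 of 60 (40%) had their highest group mean there and 0 their lowest, against 16% and 16.8% of all genes. The mean over the 60 members was 0.30, 0.30 and 0.41 on the GFP-minus DC arrays, and -0.36, 0.02 and -0.47 on the GFP-plus DC arrays. It ran from -0.23 to 0.09 in GFP-minus and from -0.62 to -0.02 in GFP-plus CD103 macrophages, where replicate 1 gave the lowest value. In CD11b macrophages it ran from -0.22 to 0.12 in GFP-minus and from 0.02 to 0.20 in GFP-plus cells. The DC arrays of both gates did not overlap in this mean, and the macrophage arrays did. The mean over all genes was -0.08 to 0.03 in GFP-minus and -0.25 to -0.07 in GFP-plus DCs. On replicate 1 of the GFP-plus CD103 macrophages it was -0.15, the lowest of that group. The member mean includes the Y-linked Eif2s3y, with group means of 3.84 in GFP-minus and -0.04 in GFP-plus DCs. The members varied more among arrays of a group than most genes did, with a median within-group SD of 0.48 against 0.29 over all genes.

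**Figure D2:**
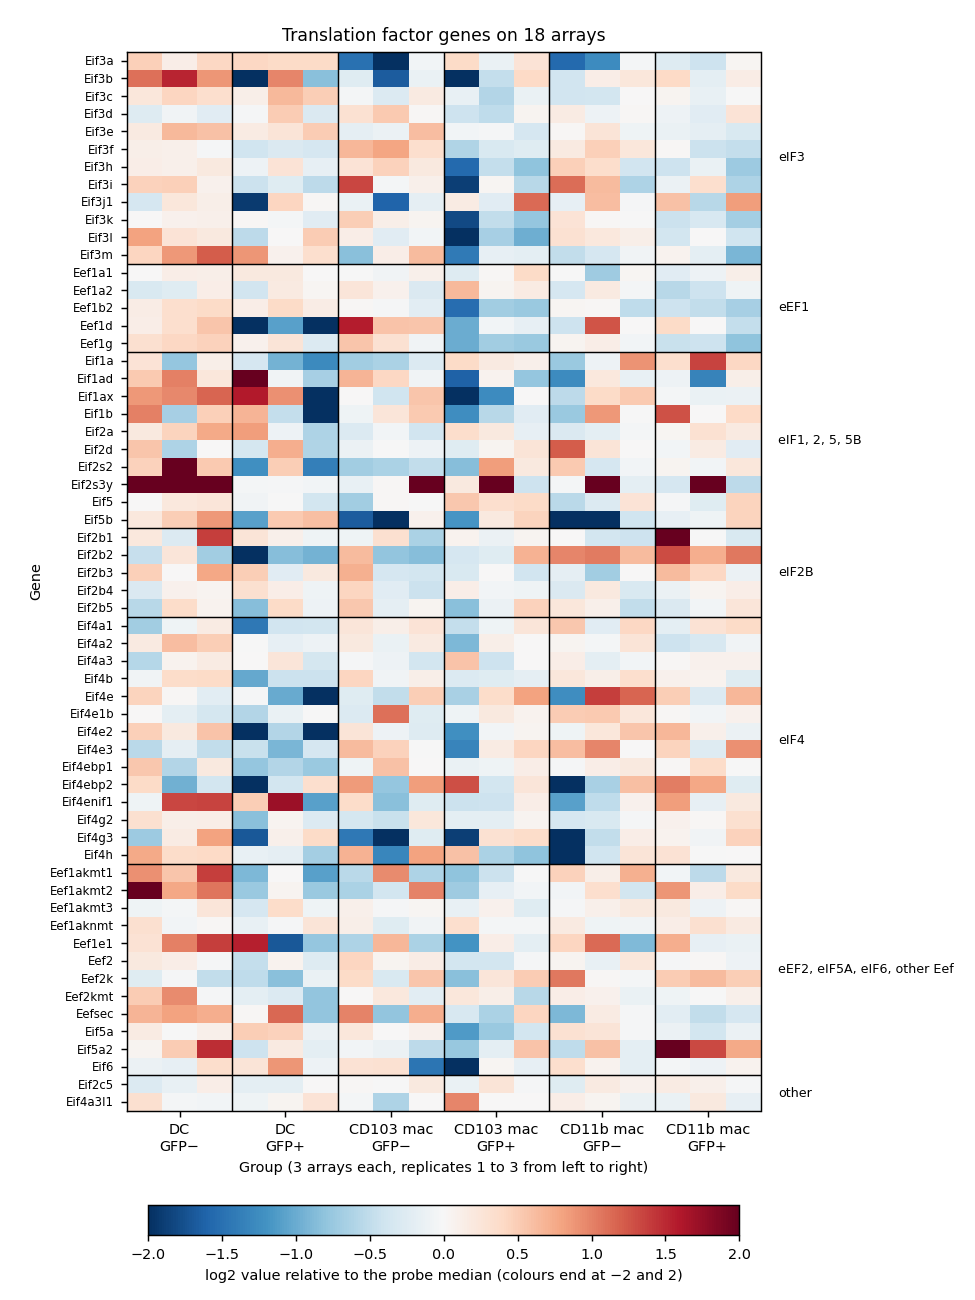
Log2 values of the 60 translation factor genes (rows, grouped by role) on the 18 arrays (columns, 3 per group); red is above and blue below the probe's median over the arrays. GFP-minus DCs hold the highest group mean of 24 genes, and 9 of 12 eIF3 subunits have their lowest group mean in GFP-plus CD103 macrophages.

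Between GFP-plus and GFP-minus DCs, 3 of 60 members fell and 0 rose in the limma fit over all genes (Benjamini-Hochberg adjusted p under 0.05); over all 22180 genes 1.58% passed, 1.26% as lower. The genes that fell were Eef1d, Eif4e2 and Eif4b. Of the members, 50 of 60 (83.3%) had a change below 0, against 52.9% of all genes, and the median change was -0.41 against -0.02. In bulk sorted samples, fewer cells that carry an mRNA and less of it per cell cannot be told apart. In CD103 macrophages 2 of 60 members fell, Eef1g and Eif3f, where 0.0541% of all genes passed and 0.0271% as lower. There 38 of 60 members (63.3%) were below 0, against 47.2% of all genes, with a median of -0.23 against 0.02. That median ran from -0.36 without GFP-minus replicate 2 to -0.05 without GFP-plus replicate 1. In CD11b macrophages limma called 0 of 60 members, where 0.0271% of all genes passed. At an unadjusted p under 0.05 there were 5 members, 3 lower and 2 higher, where 6.16% of all genes reached that level (1.80% lower and 4.36% higher), and the median change was -0.02 against 0.01.

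The arrays of both gates lay apart, with all GFP-plus values lower, for 16 of 60 members in DCs (11.5% of all genes), 11 in CD103 macrophages (5.44%) and 9 in CD11b macrophages (6.24%). The opposite order was seen for 0, 3 and 4 members (8.66%, 7.54% and 9.63% of all genes). For 3 members, Eef1g, Eif3f and Eif4b, all GFP-plus arrays were below all GFP-minus arrays in each of the 3 populations, an order that 0.0902% of all genes showed. The opposite order in each population was shown by 0 members and 0.0586% of all genes. A change below 0 in all 3 populations was found for 24 of 60 members (40%) and for 12.1% of all genes. Averaged over the 3 populations, 2 of 60 members fell and 0 rose, Eef1g and Eif3f again, where 0.410% of all genes passed and 0.225% as lower.

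The eEF1 subunits did not move as a block. Eef1g encodes the gamma subunit that anchors the exchange complex. In DCs it read 0.32, 0.41 and 0.46 without GFP and 0.09, 0.25 and -0.27 with it. In CD103 macrophages the values were 0.55, 0.31 and -0.07 against -0.99, -0.70 and -0.75. The CD11b macrophages gave 0.06, 0.14 and -0.06 against -0.44, -0.41 and -0.81. The groups do not overlap in any population, and the gap is widest in CD103 macrophages. There Eef1g fell by 1.08 on the log2 scale (SE 0.17, n = 3 arrays per group), which is 2.12-fold lower, with an adjusted p of 0.0439. The change was -0.37 ± 0.17 in DCs (adjusted p = 0.33) and -0.60 ± 0.17 in CD11b macrophages (adjusted p = 0.529), neither of which passed. The mean over the 3 populations was -0.68 ± 0.10 (adjusted p = 0.012). It kept its call with each of the 18 arrays left out in turn (adjusted p from 0.00425 to 0.0345) but not without the 4 arrays of lowest estimated weight (adjusted p = 0.0644).

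The call of Eef1g in CD103 macrophages itself rested on nearly every array. It was lost without GFP-minus replicate 1 (adjusted p = 0.114) or 2 (0.0902) and without GFP-plus replicate 1 (0.0868), 2 (0.0569) or 3 (0.069), while the log2 change stayed between -1.25 and -0.94. With Xist as a covariate, an alternative chosen after seeing the data, the change was -1.08 with an adjusted p of 0.0983 in CD103 macrophages, and the mean over the populations kept its call (adjusted p = 0.0437). The call in CD103 macrophages was also lost without the 4 low-weight arrays (0.184) and in a fit on that population alone (0.342). The marker means given above moved with the same gate, and their part in the change of Eef1g and the other members was not tested.

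Eef1b2, the exchange subunit proper, followed the same order among macrophages. It read 0.02, -0.02 and -0.21 in GFP-minus and -1.52, -0.70 and -0.74 in GFP-plus CD103 macrophages, which do not overlap. The change of -0.92 ± 0.20 missed the threshold (adjusted p = 0.124). In CD11b macrophages the values 0.04, 0.02 and -0.51 against -0.42, -0.50 and -0.66 overlapped (-0.38 ± 0.20, adjusted p = 0.861). The DC arrays of both gates overlapped, at 0.15, 0.34 and 0.39 without and 0.14, 0.39 and 0.15 with GFP; the difference was -0.07 ± 0.20.

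Eef1d, the other exchange subunit, fell in DCs. GFP-minus DCs read 0.13, 0.34 and 0.56, and GFP-plus DCs -3.47, -1.08 and -3.17. All GFP-plus DC arrays were lower, replicate 2 by far the least. Eef1d fell by 2.92 (SE 0.56), or 7.56-fold, with an adjusted p of 0.0221. In CD103 macrophages the groups also lay apart, at 1.57, 0.57 and 0.55 against -1.0, -0.06 and -0.17, but the change of -1.31 ± 0.56 did not pass (adjusted p = 0.488). CD11b macrophages overlapped, at -0.41, 1.25 and 0.00 against 0.39, 0.00 and -0.47 (-0.30 ± 0.56). The F-test of whether the GFP effect of Eef1d differed between populations gave an adjusted p of 0.275. The DC call was lost without GFP-plus replicate 1 (adjusted p = 0.0785) or 3 (0.0675) and without GFP-minus replicate 2 (0.0752) or 3 (0.075).

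The genes of the GTPase itself did not pass. Eef1a1 changed by 0.05 ± 0.19 in DCs, 0.04 ± 0.19 in CD103 and 0.16 ± 0.19 in CD11b macrophages, none of which passed. Its group means ran from -0.23 to 0.13 across the 6 groups, but its pair of probes correlated at r = -0.32 over the 18 arrays, and many pseudogenes resemble it, so its values are uncertain. Eef1a2, the form of muscle and neurons, changed by 0.09 ± 0.22, 0.28 ± 0.22 and -0.28 ± 0.22.

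**Figure D3:**
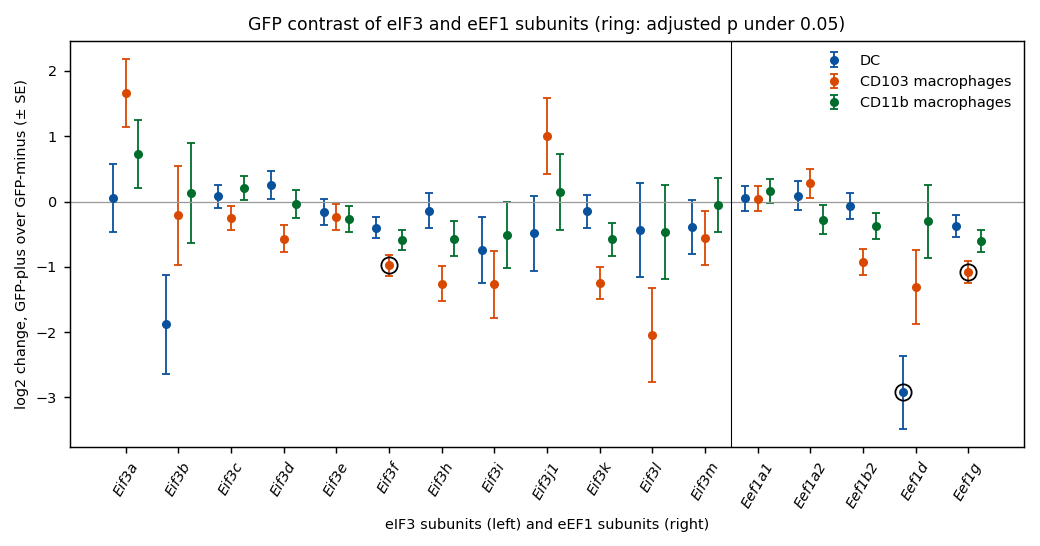
Log2 change of GFP-plus over GFP-minus cells with its standard error for the 12 eIF3 and 5 eEF1 subunits in DCs, CD103 macrophages and CD11b macrophages (3 arrays per group); rings mark an adjusted p under 0.05. Eef1d in DCs (-2.92) and Eef1g (-1.08) and Eif3f (-0.98) in CD103 macrophages are ringed, and most eIF3 subunits lie below 0 in CD103 macrophages.

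Among the eIF3 subunits, Eif3f was the member that passed in a GFP contrast. It encodes an MPN-domain subunit. Eif3f read 0.67, 0.79 and 0.33 in GFP-minus and -0.60, -0.30 and -0.24 in GFP-plus CD103 macrophages. GFP-minus CD11b macrophages gave 0.18, 0.47 and 0.23, and the GFP-plus ones 0.02, -0.43 and -0.47. In DCs the values were 0.11, 0.10 and -0.02 against -0.40, -0.29 and -0.33. The gates do not overlap in any population, and GFP-plus cells were lower each time. Eif3f fell by 0.98 (SE 0.16) in CD103 macrophages, 1.97-fold, with an adjusted p of 0.0439. The changes of -0.40 ± 0.16 in DCs (adjusted p = 0.235) and -0.59 ± 0.16 in CD11b macrophages (adjusted p = 0.458) did not pass. The mean over populations was -0.66 ± 0.09 (adjusted p = 0.0078), and it kept its call with each array left out in turn (0.00402 to 0.0245), without the 4 low-weight arrays (0.0402) and with Xist as a covariate (0.0328).

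In CD103 macrophages the call of Eif3f was lost without GFP-minus replicate 1 (adjusted p = 0.114) or 2 (0.108) and without GFP-plus replicate 1 (0.087), 2 (0.0625) or 3 (0.0585). It was also lost under quantile normalization (0.0553), with the replicate block (0.0551), without the 4 low-weight arrays (0.181), in a fit on that population alone (0.342) and with Xist as a covariate (0.0987). The change stayed between -1.11 and -0.87 with 1 array left out.

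No other eIF3 subunit passed in the GFP contrast of CD103 macrophages. There 10 of 12 subunits, Eif3f included, were below 0, with a median of -0.57 against 0.02 over all genes, and 9 of 12 (75%) had their lowest group mean in GFP-plus CD103 macrophages, against 13% of all genes. Eif3k, a peripheral subunit, read 0.49, 0.11 and 0.05 against -1.81, -0.50 and -0.77 (-1.25 ± 0.25, adjusted p = 0.104). Eif3h, the partner of Eif3f with the same domain, read 0.28, 0.46 and 0.19 against -1.56, -0.48 and -0.81 (-1.26 ± 0.27, adjusted p = 0.112). Neither pair of groups overlaps, and in both genes replicate 1 of the GFP-plus cells is the lowest array. Eif3l showed this most, at 0.13, -0.23 and -0.05 against -4.68, -0.66 and -0.97 (-2.05 ± 0.72, adjusted p = 0.365). That array had the lowest estimated weight of all 18 (0.352), and without it the median eIF3 change in CD103 macrophages was -0.42.

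The core subunits were less uniform. Eif3a, the largest scaffold subunit, had a change above 0 in CD103 macrophages, with GFP-plus values of 0.39, -0.14 and 0.27 against -1.50, -2.88 and -0.06 in GFP-minus cells (1.66 ± 0.52, adjusted p = 0.283), which overlap. Eif3b, another core subunit, changed by -1.88 ± 0.76 in DCs (adjusted p = 0.247), from 1.10, 1.53 and 0.89 to -2.24, 0.97 and -0.84. Eif3c changed by 0.08 ± 0.18, -0.25 ± 0.18 and 0.21 ± 0.18 in DCs, CD103 and CD11b macrophages. Eif3e changed by -0.16 ± 0.20, -0.24 ± 0.20 and -0.27 ± 0.20, and Eif3i by -0.74 ± 0.51, -1.27 ± 0.51 and -0.51 ± 0.51. Eif3m changed by -0.39 ± 0.41, -0.56 ± 0.41 and -0.05 ± 0.41. Eif3d, a subunit able to bind some caps, gave 0.25 ± 0.21, -0.57 ± 0.21 and -0.04 ± 0.21 from a pair of probes that correlated at r = -0.16. Eif3j1, a loosely held subunit, gave -0.49 ± 0.58, 1.00 ± 0.58 and 0.15 ± 0.58. None of these passed the test. In DCs the eIF3 median was -0.28, and -0.13 without GFP-plus replicate 1. In CD11b macrophages it was -0.16, and -0.28 without GFP-plus replicate 1.

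The eIF4 group held the other members that fell in DCs. Eif4e2 encodes a cap-binding relative of eIF4E that represses translation. It read 0.47, 0.19 and 0.57 in GFP-minus and -2.85, -0.58 and -2.48 in GFP-plus DCs. As with Eef1d, replicate 2 of the GFP-plus DCs was the nearest to the GFP-minus arrays. Eif4e2 fell by 2.38 (SE 0.48), 5.21-fold, with an adjusted p of 0.0271. The changes of -0.37 ± 0.48 in CD103 and -0.01 ± 0.48 in CD11b macrophages did not pass, and the F-test of the difference between populations gave an adjusted p of 0.212. The DC call was lost without GFP-plus replicate 1 (adjusted p = 0.0944) or 3 (0.0834) and without GFP-minus replicate 1 (0.0552), 2 (0.0738) or 3 (0.0908).

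Eif4b, a cofactor of the eIF4A helicase, read -0.07, 0.36 and 0.39 in GFP-minus and -1.03, -0.43 and -0.43 in GFP-plus DCs, without overlap. It fell by 0.86 (SE 0.19), 1.81-fold, with an adjusted p of 0.0372. In CD103 macrophages it read 0.43, -0.07 and 0.11 against -0.28, -0.25 and -0.18 (-0.40 ± 0.19), and in CD11b macrophages 0.23, 0.12 and 0.33 against 0.08, 0.07 and -0.25 (-0.26 ± 0.19). These are small steps that share a direction, and the mean of -0.50 ± 0.11 missed the threshold (adjusted p = 0.0633). The DC call was lost without GFP-plus replicate 1 (adjusted p = 0.115) and without GFP-minus replicate 2 (0.13) or 3 (0.131). With Xist as a covariate, Eef1d, Eif4e2 and Eif4b kept their calls in DCs (adjusted p = 0.0436, 0.0478 and 0.0362). Among the DC arrays Xist was low on GFP-minus replicate 1 alone, while Eif2s3y was high on all 3 GFP-minus arrays, so this covariate does not separate the male cells from the GFP gate in DCs.

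The count of members called in DCs was 0 without GFP-plus replicate 1 and 6 without GFP-plus replicate 2. All 3 calls ended under quantile normalization, without the 4 low-weight arrays and in a fit on the DC arrays alone.

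Of the 14 eIF4 genes, 13 were below 0 in DCs (median -0.54), 9 in CD103 and 7 in CD11b macrophages. Eif4ebp1, an inhibitor of eIF4E, read 0.54, -0.58 and 0.19 against -0.77, -0.58 and -0.75 in DCs (-0.75 ± 0.24, adjusted p = 0.136). Eif4e, the cap-binding protein, changed by -1.44 ± 0.73 in DCs (adjusted p = 0.372), where GFP-plus replicate 3 stood at -3.02 and replicate 1 at -0.03. Eif4a2, a helicase gene, gave -0.53 ± 0.22 from 3 probes, of which a pair correlated at r = -0.48. None of the eIF4 genes passed in the macrophage contrasts.

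**Figure D4:**
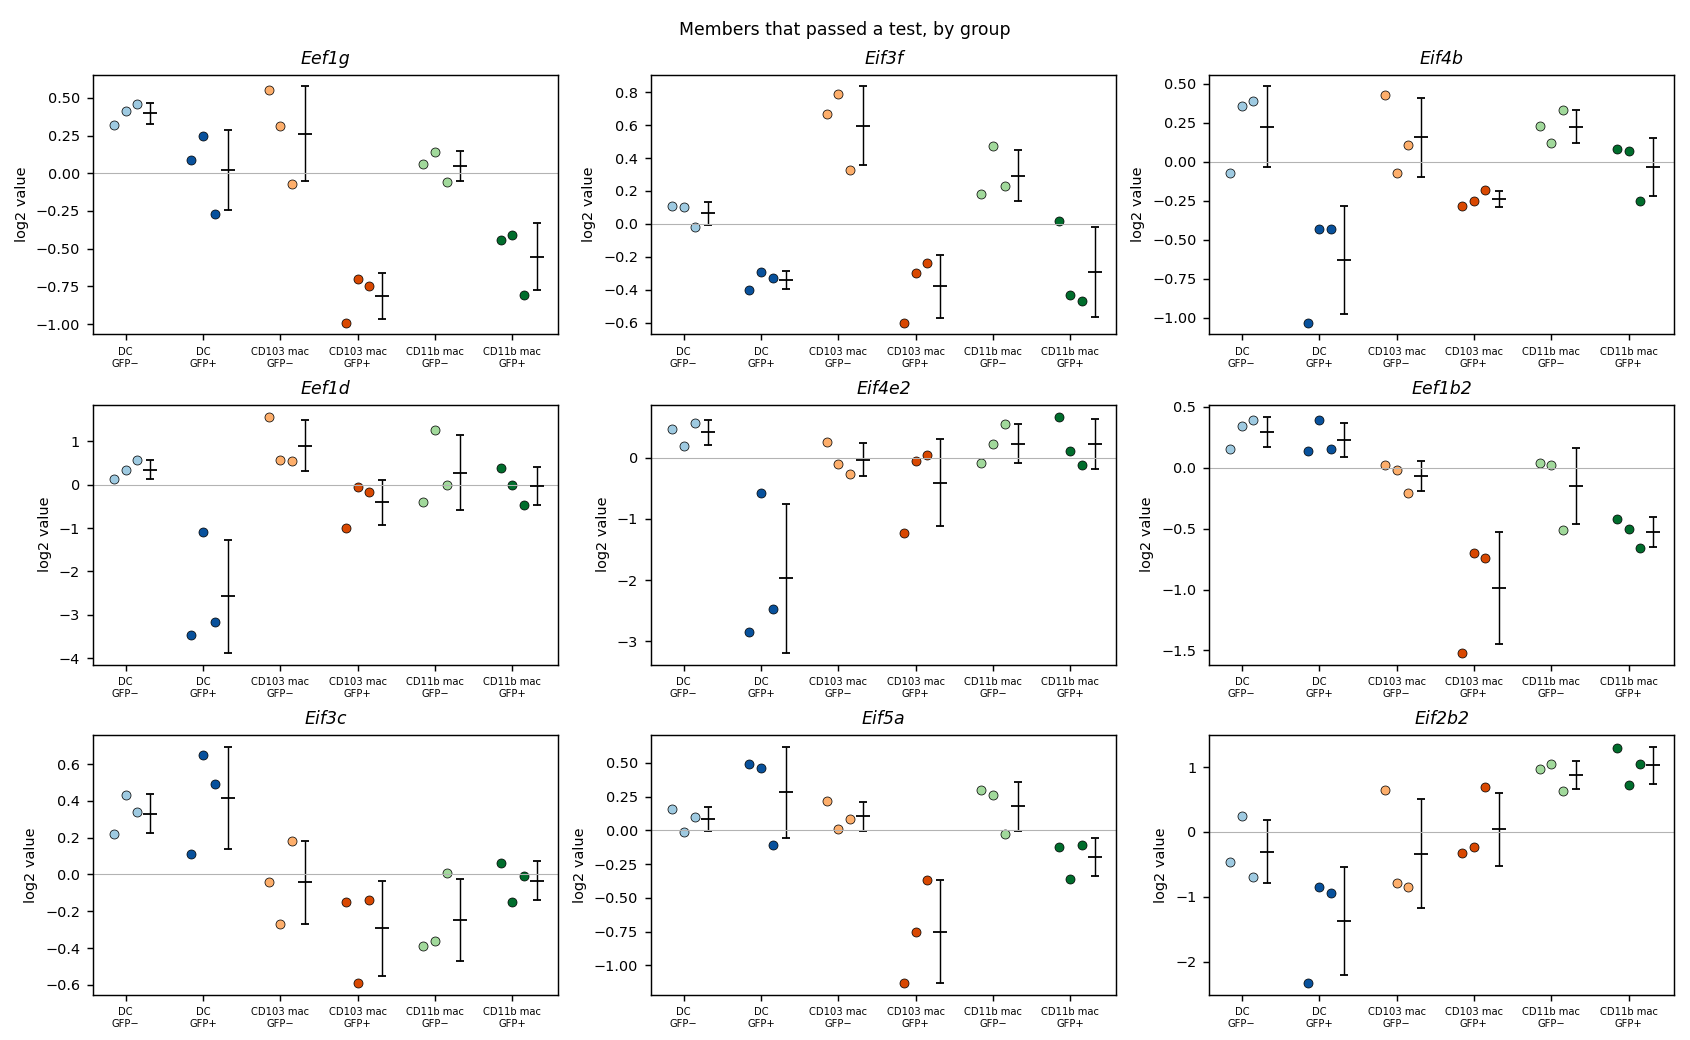
Log2 values of the 9 members that passed in at least 1 comparison, by group; points are arrays and the bar beside them is the mean ± SD of 3 arrays. Eef1g, Eif3f and Eif4b are lower in GFP-plus cells of each population without overlap, Eef1d and Eif4e2 are lowest in GFP-plus DCs, and Eif2b2 is highest in CD11b macrophages.

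The genes grouped by name with eIF1, eIF2, eIF5 and eIF5B showed no call. All 10 of them had a change below 0 in DCs (median -0.61), Eif2s3y among them, while 7 of 10 were above 0 in each macrophage population. Eif2s2, the beta subunit of eIF2, read 0.46, 2.52 and 0.53 against -1.23, 0.49 and -1.37 in DCs (-1.88 ± 0.57, adjusted p = 0.119). Eif5b, the GTPase of subunit joining, had a change of the opposite sign in CD11b macrophages, from -3.10, -2.20 and -0.40 to -0.16, -0.09 and 0.44 (1.96 ± 0.71, adjusted p = 0.682). Those groups do not overlap, and the GFP-minus arrays themselves were widely spread.

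The eIF2B subunits changed by -1.07 to 0.17 in DCs, by -0.30 to 0.37 in CD103 and by 0.03 to 1.19 in CD11b macrophages, and none passed in a GFP contrast. Among the elongation enzymes, the eEF1A methyltransferase genes Eef1akmt2 and Eef1akmt1 came closest to the threshold in DCs. Eef1akmt2 read 2.38, 0.77 and 1.07 against -0.74, 0.06 and -0.74 (-1.88 ± 0.45, adjusted p = 0.0562). Eef1akmt1 read 0.92, 0.56 and 1.38 against -0.90, 0.01 and -1.08 (-1.61 ± 0.41, adjusted p = 0.0655). In both, the GFP-plus DC arrays are all lower.

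Eef2, the target of the toxin, did not pass in a GFP contrast. It read 0.20, 0.13 and -0.03 against -0.47, 0.07 and -0.26 in DCs (-0.32 ± 0.16, adjusted p = 0.357). CD103 macrophages gave 0.43, 0.05 and 0.15 against -0.36, -0.37 and -0.02 (-0.46 ± 0.16, adjusted p = 0.349), and CD11b macrophages 0.05, -0.15 and 0.22 against -0.03, 0.02 and -0.10 (-0.08 ± 0.16, adjusted p = 0.971). The arrays lay apart only in CD103 macrophages, and these are mRNA values, which do not report the state of the protein. Eef2k, whose kinase slows eEF2, changed by -0.24 ± 0.36, -0.24 ± 0.36 and 0.20 ± 0.36.

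Eif5a, a hypusine-bearing factor of elongation, followed Eef1b2: 0.22, 0.01 and 0.08 against -1.13, -0.75 and -0.37 in CD103 macrophages (-0.85 ± 0.19, adjusted p = 0.129), where DCs gave 0.20 ± 0.19. Its F-test gave the smallest p of the set for a GFP effect that differs between populations, with an adjusted p of 0.199, followed by Eef1akmt2 (0.21) and Eif4e2 (0.212). That F-test in limma called 0 of 60 members and 0.361% of all genes, and 15 members had an unadjusted p under 0.05, as did 12.6% of all genes. The paralog Eif5a2 had higher values in GFP-plus CD11b macrophages, from -0.51, 0.59 and -0.19 to 2.78, 1.32 and 0.75, without overlap and without passing (1.65 ± 0.50, adjusted p = 0.532).

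The populations differed in a few members. In DCs over CD103 macrophages, averaged over both gates, 4 of 60 members were higher and 0 lower, where 7.93% of all genes passed, 2.60% as higher. They were Eef1b2, Eif3c, Eef1g and Eif5a. In DCs over CD11b macrophages 3 of 60 were higher (Eef1b2, Eif3c and Eef1g) and 1 lower (Eif2b2), where 8.12% of all genes passed, 2.17% as higher and 5.94% as lower. These comparisons share the DC arrays. The share of members called, 4 of 60 in each, is close to the share over all genes. Between the macrophage populations limma called 0 of 60 members and 0.0721% of all genes, and 4 members had an unadjusted p under 0.05 (5.51% of all genes), Eif2b2 (-1.10 ± 0.32, adjusted p = 0.541), Eif5a2 (-0.97 ± 0.35) and Eif5a (-0.31 ± 0.14) with the smallest p.

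Eef1b2 separated DCs from macrophages best. All 6 DC arrays lay between 0.14 and 0.39, and all 12 macrophage arrays between -1.52 and 0.04. It was higher in DCs by 0.79 ± 0.14 over CD103 macrophages (adjusted p = 0.0026) and by 0.60 ± 0.14 over CD11b macrophages (adjusted p = 0.0167), and it kept both calls with each array left out. GFP-plus CD103 macrophages are the lowest group, and the DC values also exceeded those of GFP-minus CD103 macrophages, which reached 0.02.

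Eif3c, a scaffold subunit of eIF3, read 0.22, 0.43 and 0.34 in GFP-minus and 0.11, 0.65 and 0.49 in GFP-plus DCs. CD103 macrophages ran from -0.59 to 0.18 and CD11b macrophages from -0.39 to 0.06. DCs and CD11b macrophages did not overlap. The difference was 0.54 ± 0.12 over CD103 macrophages (adjusted p = 0.0133) and 0.51 ± 0.12 over CD11b macrophages (adjusted p = 0.0184). The latter call was lost without GFP-plus CD11b macrophage replicate 2 (adjusted p = 0.0502) and under quantile normalization (0.0782). The eIF3 median in DCs over CD103 macrophages was 0.40, and 9 of 12 subunits were above 0.

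Eef1g was higher in DCs by 0.49 ± 0.12 over CD103 (adjusted p = 0.0232) and 0.47 ± 0.12 over CD11b macrophages (adjusted p = 0.03), but the arrays overlapped. Its group means without GFP were 0.40 in DCs, 0.26 in CD103 and 0.05 in CD11b macrophages. With GFP they were 0.03, -0.82 and -0.55, so the gap was wider in the GFP-plus gate. The first call was lost without DC GFP-minus replicate 2 (adjusted p = 0.0508) or 3 (0.0559), DC GFP-plus replicate 1 (0.0513) or 2 (0.0557), GFP-minus CD103 macrophage replicate 3 (0.0525) or GFP-plus CD103 macrophage replicate 1 (0.0531). The other was lost without DC GFP-minus replicate 2 (0.0618) or 3 (0.0691), DC GFP-plus replicate 1 (0.0639) or 2 (0.0671), GFP-minus CD11b macrophage replicate 1 (0.0508) or 3 (0.0693), or GFP-plus replicate 3 (0.0873). Eif5a was higher in DCs over CD103 macrophages by 0.51 ± 0.14 (adjusted p = 0.0328). Without GFP the group means were 0.08 in DCs and 0.10 in CD103 macrophages. With GFP they were 0.28 and -0.75. By these means Eif5a was higher in DCs in the GFP-plus gate alone. Its call was lost without any of the 3 GFP-minus DC arrays (0.0766, 0.0518 and 0.0666), GFP-plus DC replicate 1 (0.0797) or 2 (0.0749), GFP-minus CD103 macrophage replicate 2 (0.0712) or 3 (0.0611), or GFP-plus replicate 1 (0.0675) or 2 (0.065). Next came Eef1d, lower in DCs by a change of -1.36 ± 0.40 (adjusted p = 0.0511).

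Eif2b2, the beta subunit of the eIF2 exchange factor, was the member that was lower in DCs. It read -0.46, 0.24 and -0.70 in GFP-minus and -2.33, -0.85 and -0.94 in GFP-plus DCs. CD11b macrophages gave 0.97, 1.04 and 0.63 without and 1.30, 0.73 and 1.05 with GFP. CD103 macrophages read 0.64, -0.79 and -0.85 without and -0.33, -0.24 and 0.69 with GFP, so their GFP-minus arrays overlap the GFP-minus DC arrays. All 6 CD11b macrophage arrays were above all 6 DC arrays. The change in DCs over CD11b macrophages was -1.79 ± 0.32 (adjusted p = 0.00188), and its call held with each array left out (-1.93 to -1.55). None of the other 4 eIF2B subunits passed there.

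Lists of related genes were read in the same fits. Unlike those of the members, their calls were not followed under the alternatives or with arrays left out. In the GFP contrast of DCs, 2 of 11 genes of poly(A) binding and scanning fell, where 1.26% of all genes did: Paip2, an inhibitor of the poly(A)-binding protein (-2.21 ± 0.40, adjusted p = 0.017), and Dhx29, a helicase of scanning (-1.44 ± 0.33, adjusted p = 0.044). Of 13 genes of the mTOR and MNK arm 1 rose, where 0.325% of all genes did: Mtor (1.47 ± 0.33, adjusted p = 0.0415), which also rose in the mean over populations (0.97 ± 0.19, adjusted p = 0.039; 0.185% of all genes). Mtor was higher in DCs over CD103 (1.74 ± 0.23, adjusted p = 0.000142) and CD11b macrophages (1.68 ± 0.23, adjusted p = 0.000184). In that arm Tsc1, an inhibitor of mTOR complex 1, was lower in DCs over CD103 macrophages (-1.19 ± 0.29, adjusted p = 0.0182), and Rptor, a subunit of the complex, was lower over CD11b macrophages (-1.02 ± 0.27, adjusted p = 0.0301).

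Of 12 genes of the eIF2 kinases and the stress response, 2 were lower in DCs over either macrophage population, where 5.33% (CD103) and 5.94% (CD11b) of all genes were. Impact, which restrains the kinase Gcn2, differed by -2.51 ± 0.38 over CD103 (adjusted p = 0.000477) and -2.74 ± 0.38 over CD11b macrophages (adjusted p = 0.000199). Ppp1r15a, which directs the phosphatase of eIF2, differed by -0.90 ± 0.18 (adjusted p = 0.00611) and -0.94 ± 0.18 (adjusted p = 0.00377). None of the 12 genes of diphthamide, hypusine, termination and recycling and none of 9 mitochondrial factors passed in any of the 8 comparisons. In the GFP contrast of DCs, 3 of those 12 and 5 of those 9 had an unadjusted p under 0.05, as did 15.4% of all genes.

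Beside the members, 57 cytosolic ribosomal protein genes, a list drawn up after their values had been seen, had median GFP changes of -0.24 in DCs, -0.60 in CD103 and -0.31 in CD11b macrophages, against -0.02, 0.02 and 0.01 over all genes. Of the 57, 43 were below 0 in DCs, 51 in CD103 and 52 in CD11b macrophages. In the mean over populations 6 of 57 fell and 0 rose, where 0.225% and 0.185% of all genes did.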

How the data were processed

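RNA from 18 sorted samples was amplified from 1 ng and hybridised to Affymetrix mouse arrays, per the labels' protocols. The authors deposited a table of 33793 probes as log2 values centred per probe: the median of each of the 33793 rows was within 1e-05 of 0. The base was inferred from a largest span of 10.15 units within a probe, and fold changes rest on it; software and normalization: not given in the sources used here. Absolute signal is lost through the centring, and with it detection above background.

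Probes were named through the platform annotation: 23521 had 1 symbol, 1814 several and 8458 none. Single-symbol probes were averaged within a gene (1082 genes had more than 1). A mean per group was fitted over 18 arrays in limma 3.58.1 (R 4.3.3, eBayes, 12 residual and 2.089 prior degrees of freedom). Comparisons were the GFP contrast (GFP-plus over GFP-minus) of each population, the mean of these, an F-test of their difference, and the 3 pairs of populations. P-values are two-sided and adjusted over 22180 genes at a threshold of 0.05. The number of arrays limits the precision. The procedure was tested on simulated data with planted changes, with noise drawn independently for each gene and of equal spread on all arrays. The real arrays had estimated weights from 0.352 to 2.52, so that test does not bear on how firm the calls are.

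The members, roles and lists were chosen with earlier results of these data known. Named are members that passed, all eIF3 and eEF1 subunits, the 3 members of smallest p in a comparison and up to 4 passing genes of a list. Same-numbered arrays of different groups deviated together only weakly as a whole. Their median correlation was 0.061 over 45 pairs (-0.172 to 0.337, 13 of them over 0.1), against -0.017 over 90 other pairs. No pairing was used in the main fit, although these values do not show that the arrays are unpaired. Marker lists covered DCs, macrophages, all sorted cells, T and innate lymphocytes, B and plasma cells, inflammatory monocytes, enterocytes and secretory epithelium. Alternatives were quantile normalization, array weights, robust variances, a replicate block, leaving out arrays, fits on the populations compared, single probes and, added after seeing the data, Xist as a covariate.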

Additional observations from a re-analysis of the deposited data

Results flagged for a closer look

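Probes that name more than 1 gene entered no comparison above, and 4 of them gave GFP-plus arrays all above the GFP-minus arrays in some population. These differences were not tested, and each was picked for its lack of overlap. The probe shared by Eif3j2 and Eif3j1 read 0.13 to 0.38 on the GFP-plus arrays of CD103 macrophages and -1.95 to -0.07 on the GFP-minus ones, a difference of 1.42 on the log2 scale. In CD11b macrophages it read -0.34 to 0.09 against -2.62 to -0.43, a difference of 0.99. The probe shared by Eif4ebp3, an inhibitor of eIF4E, and Ankhd1 differed by 1.60 in CD103 macrophages, at -0.26 to 0.94 against -1.22 to -1.03. The probe shared by Snora81 and Eif4a2, its host gene, differed by 0.65 in CD103 macrophages, at 0.02 to 1.29 against -0.42 to -0.01. The probe shared by Eef1a1 and Gm6548 differed by 0.25 in DCs, at 0.13 to 0.37 against -0.07 to 0.08. In the opposite order, the probe shared by Rfc4 and Eif4a2 differed by -1.53 in DCs and by -0.58 in CD11b macrophages, with all GFP-plus arrays below the GFP-minus ones. Groups of 3 arrays are too small for a test of outlying arrays.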

How the results depend on the processing

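No called member changed direction under any alternative. Medians near 0 crossed it with an array left out: that of all members from -0.01 to 0.06 in CD11b macrophages and from -0.03 to 0.09 in DCs over CD11b macrophages, and that of the eEF1 subunits from -0.05 to 0.25 between the macrophages. Members called in the GFP contrast of DCs numbered 3, and 0 under quantile normalization, without the 4 low-weight arrays and with the DC arrays alone; over all genes 351 were called, 48 under quantile normalization and 85 with the DC arrays alone. In CD103 macrophages 2 members were called, 3 under quantile normalization (Eef1g, Eif3k and Eif5a, without Eif3f), 1 with the replicate block (Eef1g), and 0 without the 4 low-weight arrays, with that population alone or with the Xist covariate. Over all genes the 12 calls became 62 under quantile normalization, 95 with array weights, 30 without the 4 arrays, 0 with that population alone and 3 with the Xist covariate. In CD11b macrophages the 6 calls over all genes became 22 and 53 under quantile normalization and array weights. For the mean GFP effect the 2 members became 5 under either of these, and the 91 genes 164, 177 and, with the Xist covariate, 38. Members called in DCs over CD103 macrophages fell from 4 to 2 with those populations alone. In DCs over CD11b macrophages they rose from 4 to 11 with array weights and 9 with those populations alone. Between the macrophages the 16 genes became 33 (quantile), 29 (weights) and 3 (those populations alone). For the F-test the 80 genes became 32, 193 and, with the replicate block, 121. Fits on fewer arrays have fewer degrees of freedom; for the other settings the cause was not tested.

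With each array left out in turn, members called ranged from 0 to 6 in DCs, 0 to 3 in CD103 and 0 to 0 in CD11b macrophages, 2 to 5 for the mean effect, 0 to 2 for the F-test, 2 to 5 in DCs over CD103, 3 to 6 in DCs over CD11b macrophages and 0 to 0 between the macrophages. Over all genes the ranges were 118 to 711, 11 to 60, 0 to 34, 25 to 172, 41 to 226, 1492 to 1842, 1409 to 1898 and 11 to 42. Whether replicate numbers pair the arrays is not settled (check under the processing). With the replicate block, members called were 4 in DCs, 4 in DCs over CD103 and 6 in DCs over CD11b macrophages. Quantile normalization moved the eEF1 median to -1.20 in CD103 macrophages. Signal over background is unknown, so a dim probe cannot be told from a bright one.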
